A study of Mus musculus with 8 samples.

Results

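Amino acids enter and leave liver cells through carrier proteins, and the genes of 10 such carriers were followed here in livers of wild-type mice and of mice with a hepatocyte knockout of the mitochondrial copper chaperone gene Sco1. The 10 were taken by gene symbol from the deposited expression table, where every one was found among the 22180 genes tested, and each was represented by its brightest probe set. They fall into 6 carriers that cells are known to induce under amino acid shortage or stress (Slc7a11, Slc3a2, Slc7a5, Slc7a1, Slc38a2 and Slc1a4) and 4 that hepatocytes express constitutively (Slc7a2, Slc38a3, Slc38a4 and Slc43a1).

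When amino acids run short, or when mitochondria or the endoplasmic reticulum are disturbed, kinases such as GCN2 phosphorylate the initiation factor eIF2, and the transcription factor ATF4 is then translated. ATF4 binds C/EBP-ATF response elements and induces genes for amino acid synthesis and uptake, among them several carriers. Slc7a11 is also a known target of the antioxidant factor NRF2. Hepatocytes in addition keep a standing set of carriers that take up alanine, glutamine and cationic amino acids from portal blood for the urea cycle, glucose production and protein synthesis.

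Liver RNA of 8 C57BL/6N mice aged 27 days was measured on 1 Affymetrix array per mouse. The 4 knockout mice were labelled Alb-Cre Sco1fl/fl: both Sco1 alleles were floxed and 1 Cre transgene was driven by the albumin promoter, which is active in hepatocytes. Sco1 is needed to assemble cytochrome c oxidase. The 4 wild-type mice were titled Sco1fl/fl, but by their genotype labels mice 1 and 3 carried Cre with 1 floxed and 1 intact allele, and mice 2 and 4 carried 2 floxed alleles without Cre. Every mouse thus carried at least 1 floxed allele. The question is how carrier genes stand in the livers labelled as knockout.

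Sco1 itself lay between 7.48 and 7.72 log2 units in the knockout arrays and between 7.84 and 8.19 in the wild-type arrays, without overlap. Its difference of -0.41 ± 0.09 (0.754-fold) did not pass the threshold used below (limma adjusted p = 0.0633). The hepatocyte genes Alb, Cps1 and Hnf4a had group means above 12 in both groups, which fits the tissue label. Of the 9 hepatocyte markers measured, Serpina1a was at 11.16 in knockout and 11.48 in wild-type, without overlap. Ass1 was at 7.38 and 7.51. Arrays correlated at 0.992 to 0.995 within the knockout and 0.994 to 0.995 within the wild-type group. Both arrays numbered mouse 1 stood apart in the clock output gene Dbp, at 9.66 and 9.86 against 6.87 to 7.33 in the other 6 arrays. Knockout mouse 4 stood apart in the Y-linked genes Eif2s3y, Kdm5d and Uty, with a mean of 7.36 against 8.60 to 8.86 elsewhere. For carriers in which these arrays were the highest or lowest, values without them are given below.

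Slc3a2 and Slc7a2 had the largest differences among the carriers, and both were higher in every knockout liver than in any wild-type liver. Slc3a2 differed by 0.43 ± 0.11 and Slc7a2 by 0.47 ± 0.11 log2 units (limma SE, n = 4 each), which is 1.35-fold and 1.38-fold. Neither passed the threshold of 0.05 (limma p after Benjamini-Hochberg adjustment over the whole table, 0.0769 and 0.0629). The other 8 carriers differed by -0.10 to 0.20, with overlapping groups. In bulk liver, a change in the number of cells of a type and a change in RNA per cell cannot be told apart.

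None of the 10 carriers was therefore called higher or lower. Over all genes tested, 0.433% were called higher and 0.717% lower (96 and 159 genes), so a count of 0 among 10 is near the background. With each array centred on its median, 60 genes were called higher and 230 lower. At an unadjusted p under 0.05, 3 carriers were higher (Slc3a2, Slc7a2 and Slc7a1) and none lower, against 8.61% and 8.06% of all genes. The knockout arrays lay wholly above the wild-type arrays for 2 of the 10 carriers and wholly below for none, against 5.26% and 5.49% of all genes. Differences were positive for 9 of the 10 carriers and for 57.2% of all genes, and the median difference was 0.12 over the carriers and 0.03 over all genes.

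**Figure D1:**
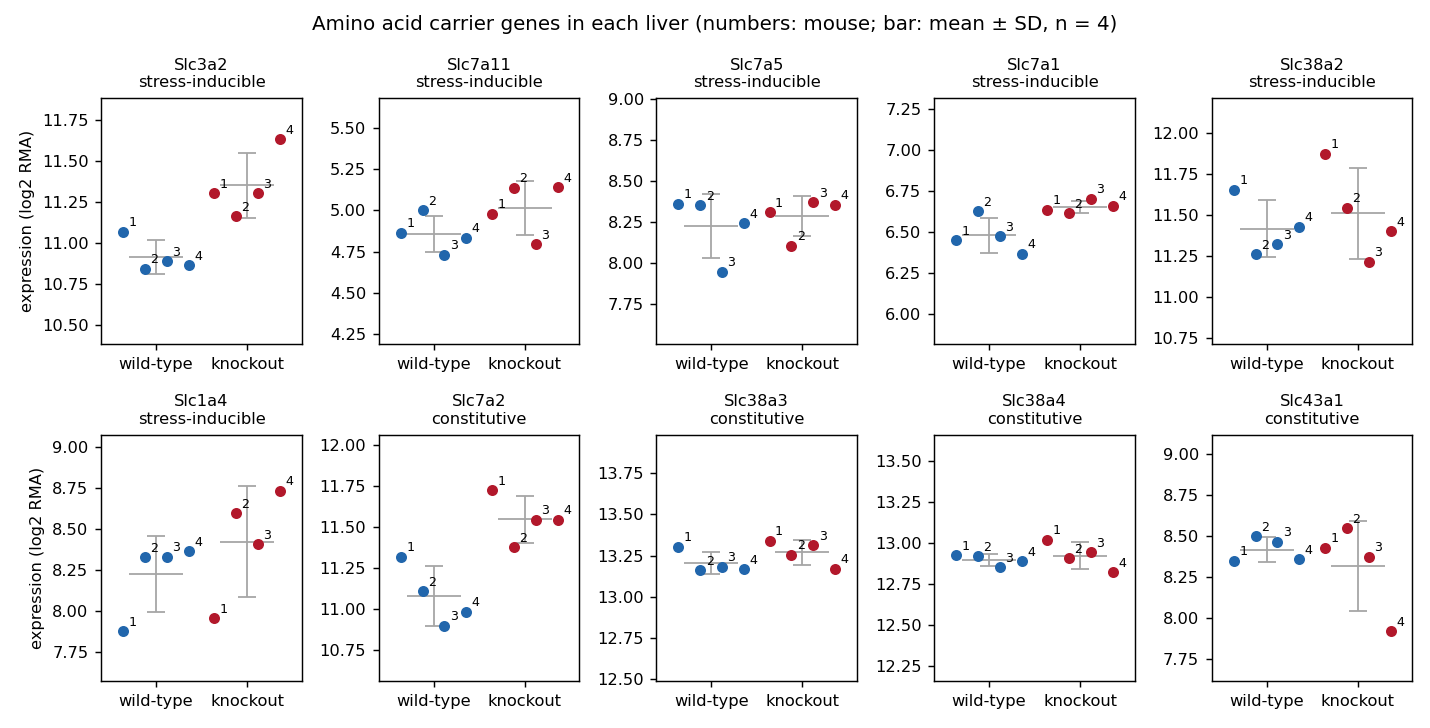
Expression of each carrier gene (vertical axis, log2 RMA units, each panel spanning the same 1.5 log2 units) in the wild-type (blue) and knockout (red) livers, with the mouse number beside each point and bars for the mean ± SD of 4 mice. The groups separate in the panels of Slc3a2 and Slc7a2 and overlap in the other 8, and mouse 1 is the lowest point of both groups in the Slc1a4 panel.

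Slc3a2 encodes CD98hc, the heavy chain that carries several light-chain transporters to the cell surface and is shared by the cystine and large neutral amino acid exchangers. It was measured at 11.30, 11.16, 11.30 and 11.63 in knockout mice 1 to 4 and at 11.07, 10.84, 10.89 and 10.86 in wild-type mice 1 to 4. Knockout mouse 4 was the highest of all, and wild-type mouse 1 was the highest control, with 0.09 log2 units between the groups. Group means were 11.35 ± 0.20 and 10.92 ± 0.10 (SD, n = 4 each). For Slc3a2 alone, an exact permutation of the arrays gave a two-sided p of 0.0286, the smallest that 4 against 4 allow. Every gene whose groups do not overlap has this value, so it restates the lack of overlap. The difference was larger than that of 99.0% of all genes. Without knockout mouse 4 it was 0.34 ± 0.09 (adjusted p = 0.102), and with the Y-linked level as a covariate 0.33.

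The light chains that pair with this heavy chain did not separate the groups in the same way. Slc7a5 encodes LAT1, which exchanges leucine and other large neutral amino acids, and stood at 8.31, 8.11, 8.37 and 8.36 in knockout and 8.36, 8.35, 7.95 and 8.24 in wild-type mice. Its groups overlapped throughout, with a difference of 0.06 ± 0.11 and a 95% interval of -0.17 to 0.29. Slc7a8, the LAT2 light chain and no member of the 10, averaged 9.23 ± 0.11 with the knockout and 8.89 ± 0.22 without it, a difference of 0.34 ± 0.11 (limma adjusted p = 0.169). Of the remaining light chains, Slc7a6 differed by 0.06, Slc7a7 by -0.06 and Slc7a10 by 0.12, with adjusted p of 0.508 or more in limma. Slc3a1, the related heavy chain that partners Slc7a9, was at 10.64 ± 0.09 against 10.36 ± 0.20, without overlap (difference 0.29 ± 0.10, adjusted p = 0.206), and Slc7a9 differed by 0.11 ± 0.08.

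Slc7a11 encodes xCT, the light chain that imports cystine in exchange for glutamate and so supplies cysteine for glutathione. Its promoter is printed because ATF4 acts through response elements of the kind searched here. The RefSeq window of 250 bases before to 50 after the listed start (GRCm38.p6, minus strand, chr3:50443564-50443863, inside the span of the gene) holds 2 matches to the core TGATGNAA, in capitals, 1 on each strand. The first begins at position -66 and the second at position -47 from the start.
Slc7a11 promoter: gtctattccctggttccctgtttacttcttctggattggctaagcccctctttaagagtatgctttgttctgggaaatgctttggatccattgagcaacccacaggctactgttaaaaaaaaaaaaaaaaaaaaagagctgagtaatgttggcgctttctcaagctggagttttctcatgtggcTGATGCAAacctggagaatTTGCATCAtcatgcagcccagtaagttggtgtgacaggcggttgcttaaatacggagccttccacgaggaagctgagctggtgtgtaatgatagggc
Slc1a4 promoter: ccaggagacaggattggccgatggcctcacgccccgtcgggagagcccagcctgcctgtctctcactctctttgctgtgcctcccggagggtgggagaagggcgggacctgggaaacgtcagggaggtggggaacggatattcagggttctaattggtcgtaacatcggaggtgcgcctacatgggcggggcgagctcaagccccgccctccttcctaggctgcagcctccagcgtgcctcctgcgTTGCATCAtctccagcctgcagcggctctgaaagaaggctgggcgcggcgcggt
Slc3a2 promoter: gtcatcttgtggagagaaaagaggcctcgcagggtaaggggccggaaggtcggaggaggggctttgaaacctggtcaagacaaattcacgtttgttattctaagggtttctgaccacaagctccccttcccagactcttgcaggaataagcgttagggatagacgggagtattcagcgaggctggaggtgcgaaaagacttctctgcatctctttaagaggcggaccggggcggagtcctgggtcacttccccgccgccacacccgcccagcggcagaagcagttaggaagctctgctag

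The Slc1a4 window (minus strand, chr11:20332664-20332963) holds 1 match, on the opposite strand, that begins at position -4 and runs across the start. The Slc3a2 window (minus strand, chr19:8713848-8714147, inside the span of the gene) holds none, and is shown because Slc3a2 is the stress-inducible carrier of largest difference. Only this 1 listed start of Slc3a2 was searched. The gene spans chr19:8706882-8723369, so sequence at its outer end was not covered. Both strands were searched, and the match on the opposite strand reads TTGCATCA. RefSeq windows were at hand for 7 of the 10 genes, 10 windows in all, and those of Slc7a2, Slc7a5 and Slc38a3 were not among them. The core was found in 2 of these 10 windows and in 3.97% of 32851 windows of all genes. The antioxidant response element core TGACNNNGC was found in the windows of Slc7a1, Slc38a2 and Slc43a1, 3 of 10, and in 12.4% of all. No match of one core overlapped a match of the other in these windows. A match describes the letters of a window only.

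Slc7a11 was dim, with a mean below the median of all gene means, 6.51, and the table carries no detection call. It stood at 4.98, 5.14, 4.79 and 5.14 in knockout mice and 4.86, 5.001, 4.73 and 4.83 in wild-type mice. Mouse 3 was the lowest of each group and the groups overlapped. The difference was 0.16 ± 0.10 (95% interval -0.06 to 0.37; limma adjusted p = 0.446). A second, dimmer probe set of the gene gave 2.82 ± 0.36 and 2.65 ± 0.11 (SD, n = 4 each), a difference of 0.17 ± 0.15 in the same direction.

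The cationic carriers import arginine, lysine and ornithine. Slc7a2 encodes CAT2, the form that hepatocytes express, and stood at 11.73, 11.38, 11.54 and 11.55 in knockout mice 1 to 4 and at 11.32, 11.11, 10.90 and 10.98 in wild-type mice. All 4 knockout arrays lay above all wild-type arrays, by 0.06 at the narrowest point, and mouse 1 was the highest of each group. Group means were 11.55 ± 0.14 and 11.08 ± 0.18 (SD, n = 4 each), and the difference exceeded that of 99.3% of all genes. The exact permutation p of Slc7a2 was 0.0286, as for any gene without overlap. Without both mouse 1 arrays the difference was 0.49 ± 0.10 (limma adjusted p = 0.0821). Without wild-type mouse 1 alone it was 0.55 ± 0.10 and passed (limma adjusted p = 0.0473), and over 20 alternative settings the adjusted p ran from 0.0314 to 0.273.

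Slc7a1 encodes CAT1, a cationic carrier of most tissues that adult hepatocytes express little and that amino acid shortage induces. It stood at 6.64, 6.61, 6.70 and 6.66 in knockout and 6.45, 6.63, 6.47 and 6.37 in wild-type mice. The knockout values were close together, and only wild-type mouse 2 reached among them. The difference was 0.17 ± 0.08 (95% interval 0.0032 to 0.34), with a limma adjusted p of 0.291 and an exact permutation p of 0.0571. Slc7a3, another cationic carrier, was dim, at 4.34 in both groups, and differed by 0.0014 ± 0.10.

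Slc3a2 and Slc7a2 were the 2 carriers that passed under another way of fitting the same arrays, shown in the plot of both genes by setting. With a trended and robust variance the adjusted p was 0.0385 for Slc3a2 and 0.0314 for Slc7a2, and with only genes brighter than the median gene it was 0.0446 and 0.0377. The estimates themselves stayed between 0.33 and 0.50 for Slc3a2 and between 0.41 and 0.55 for Slc7a2. Over the 20 alternative settings the adjusted p of Slc3a2 ran from 0.0385 to 0.316.

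**Figure D2:**
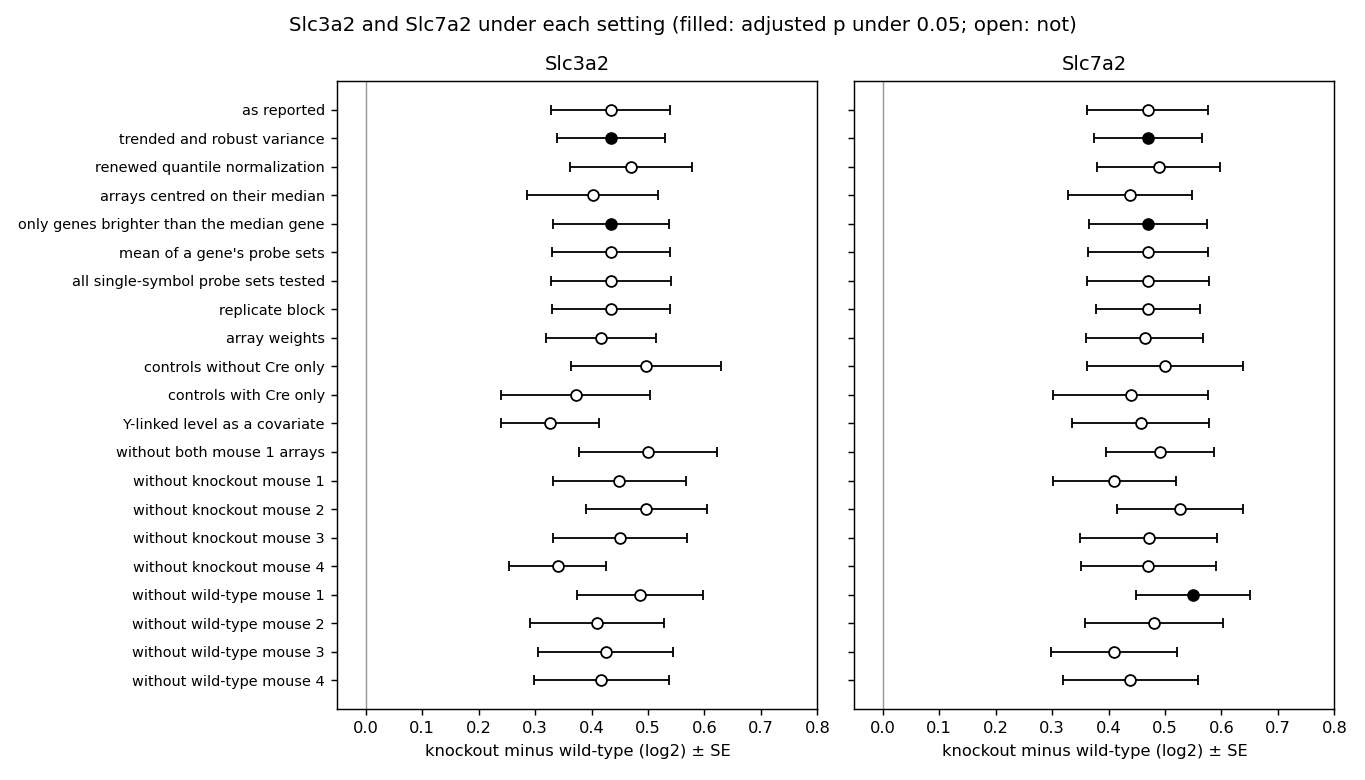
Knockout minus wild-type difference (horizontal axis, log2 units, ± limma SE) of Slc3a2 and Slc7a2 as reported and under 20 alternative settings (vertical axis), with filled points where the adjusted p was under 0.05. All points lie to the right of 0, Slc3a2 is filled under 2 settings and Slc7a2 under 3.

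The sodium-coupled neutral carriers of the SNAT family take up glutamine, alanine and other small amino acids. Slc38a2 encodes SNAT2, which starved cells induce, and stood at 11.88, 11.55, 11.22 and 11.40 in knockout and 11.66, 11.26, 11.32 and 11.43 in wild-type mice. Mouse 1 was the highest of each group, and the groups overlapped. The difference was 0.09 ± 0.14 (95% interval -0.21 to 0.39), and it turned to -0.03 without knockout mouse 1.

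Slc38a3 encodes SNAT3, the glutamine carrier of hepatocytes, and ranged from 13.17 to 13.34 in knockout and from 13.16 to 13.30 in wild-type livers. Slc38a4 encodes SNAT4, an imprinted carrier abundant in liver, and ranged from 12.82 to 13.02 and from 12.85 to 12.93. Both genes lay close to the highest value of the table, 13.88, where a rise has less room to show. Their differences were 0.07 ± 0.07 (95% interval -0.10 to 0.23) and 0.03 ± 0.07 (-0.13 to 0.19). For Slc38a4 the sign turned, to -0.0059, with arrays centred on their median. These were the narrowest intervals of the 10 carriers.

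Slc1a4 encodes ASCT1, which exchanges alanine, serine and cysteine, and is a known ATF4 target. It stood at 7.96, 8.60, 8.41 and 8.74 in knockout and 7.88, 8.33, 8.33 and 8.37 in wild-type mice. Mouse 1 was far below the other mice in each group, and the 3 remaining knockout arrays lay above the 3 remaining wild-type arrays. The difference was 0.20 ± 0.16 (95% interval -0.16 to 0.56; limma adjusted p = 0.573). Without both mouse 1 arrays it was 0.24 ± 0.10 (adjusted p = 0.3297), and the wild-type SD was 0.02 in place of 0.23. Single arrays moved the estimate more, to 0.35 without knockout mouse 1, 0.08 without wild-type mouse 1 and 0.09 without knockout mouse 4, and it was 0.09 with the Y-linked covariate. Against controls without Cre the Slc1a4 difference was 0.08 ± 0.20 and against controls with Cre 0.32 ± 0.20. It was positive under all 20 alternative settings and passed under none. Slc1a5, the related glutamine exchanger ASCT2, differed by -0.16 ± 0.12.

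Slc43a1 encodes LAT3, which lets branched-chain amino acids and phenylalanine cross the membrane without sodium. It stood at 8.43, 8.55, 8.37 and 7.92 in knockout and 8.35, 8.50, 8.46 and 8.36 in wild-type mice. Knockout mouse 4 was the low array and the 3 others lay within the wild-type range or just above it. The difference of -0.10 ± 0.12, the only negative one, became 0.03 ± 0.08 without that mouse and 0.05 with the Y-linked level as a covariate.

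**Figure D3:**
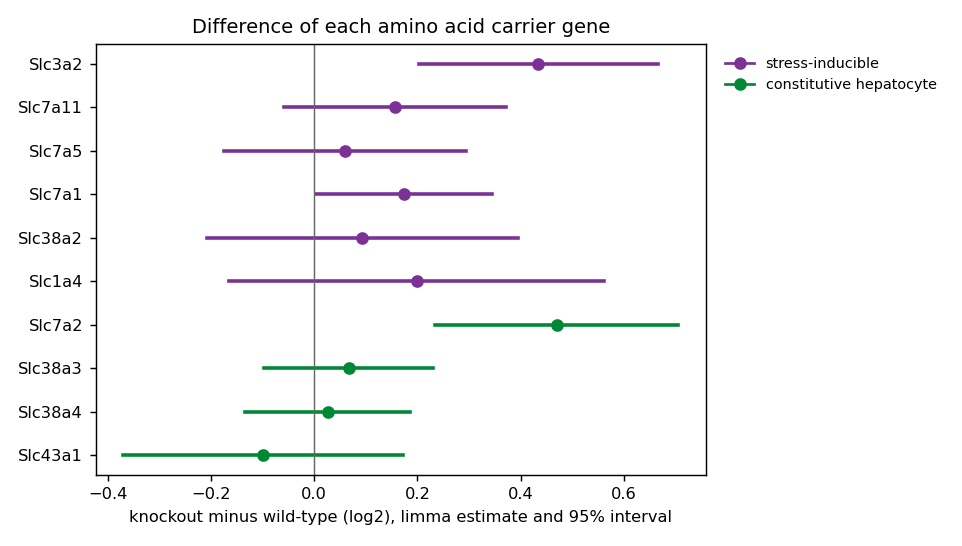
Knockout minus wild-type difference of each carrier (horizontal axis, log2 units) with its 95% interval from limma, stress-inducible carriers in purple and constitutive hepatocyte carriers in green. Each group holds 1 gene that lies well to the right of 0, Slc3a2 with 0.43 and Slc7a2 with 0.47, and the intervals of the others reach 0 or, for Slc7a1, begin at 0.0032.

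The division into stress-inducible and constitutive carriers did not separate the differences. All 6 stress-inducible carriers had positive differences, from 0.06 to 0.43 with a median of 0.17, and none was called. Of the 4 constitutive carriers 3 were positive, from 0.03 to 0.47, and 1 negative, with a median of 0.05, and none was called. The largest difference of all was that of a constitutive carrier, Slc7a2. The difference between the 2 sets was not tested.

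Mouse 1 and mouse 4 arrays shaped the spread of several carriers. In both groups mouse 1 had the highest Slc38a2 and Slc7a2, the highest Slc38a3 and Slc38a4 and the lowest Slc1a4. In the wild-type group its Slc3a2 was also the highest. The same arrays had the high Dbp level, and its part in the carrier values was not tested. Knockout mouse 4, with the low Y-linked level, had the highest Slc3a2 and Slc1a4 of all arrays and the lowest Slc43a1, Slc38a3 and Slc38a4 of its group. Without it the difference was 0.10 ± 0.08 for Slc38a3 and 0.06 ± 0.07 for Slc38a4, and without both mouse 1 arrays these were 0.08 ± 0.08 and 0.0042 ± 0.08. For Slc38a2 the difference without both mouse 1 arrays was 0.05 ± 0.11.

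**Figure D4:**
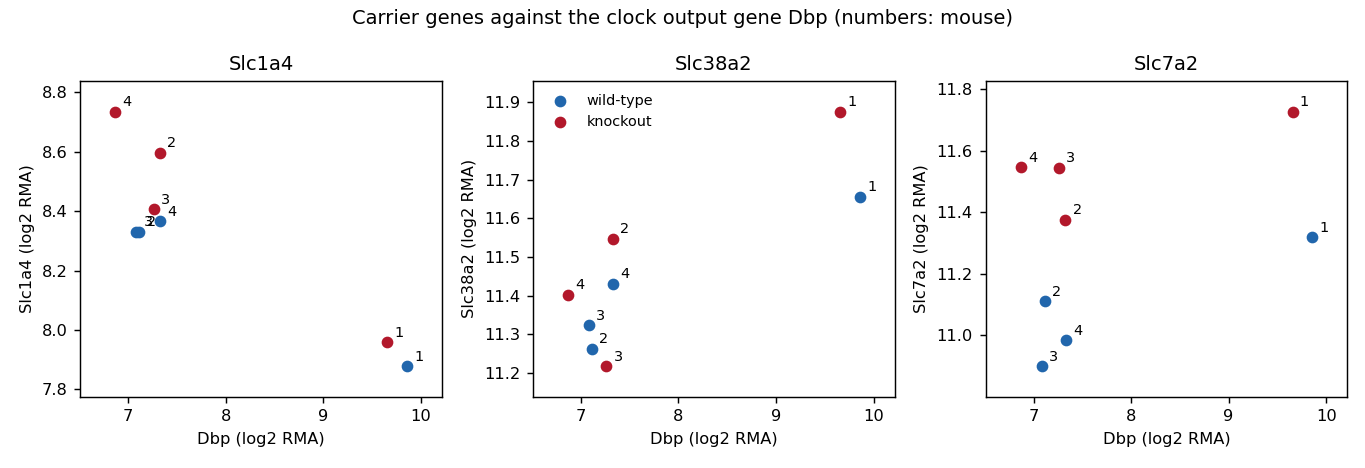
Slc1a4, Slc38a2 and Slc7a2 (vertical axes, log2 RMA) against the clock output gene Dbp (horizontal axis, log2 RMA) in the 4 wild-type (blue) and 4 knockout (red) livers, with mouse numbers. The mouse 1 arrays lie alone at Dbp values of 9.66 and 9.86, low for Slc1a4 and high for Slc38a2 and Slc7a2.

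The 2 kinds of wild-type mice did not differ detectably in any carrier. Controls with Cre and 1 floxed allele minus controls without Cre gave differences from -0.24 ± 0.23 (Slc1a4) to 0.14 ± 0.20 (Slc38a2) over the 10 genes, with the lowest unadjusted limma p at 0.318. With 2 mice a class these intervals are wide, that of Slc1a4 running from -0.76 to 0.27. Against controls without Cre, Slc3a2 differed by 0.50 ± 0.13 and Slc7a2 by 0.50 ± 0.14. Against controls with Cre the same genes differed by 0.37 ± 0.13 and 0.44 ± 0.14. These comparisons share the knockout arrays, and none passed over all genes (limma adjusted p of 0.200 to 0.316).

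Among the other carriers of the plasma membrane, none of 32 measured genes was called. At an unadjusted p under 0.05, 6 of the 32 were higher and none lower, against 8.61% and 8.06% of all genes, and the list median was 0.10 against 0.03 over all genes. The smallest p belonged to the creatine carrier Slc6a8, at 9.17 ± 0.29 against 8.76 ± 0.04 (SD, n = 4 each), a difference of 0.41 ± 0.13 with overlapping groups, followed by Slc7a8 and Slc3a1 above. The glutamate carriers Slc1a1 and Slc1a2 differed by 0.17 ± 0.07 and 0.16 ± 0.12.

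Lysosomes hold their own amino acid carriers, which release the products of protein breakdown. A list of 15 carriers held those of lysosomes and vesicles together with relatives of the same families, not all of them lysosomal. None of the 15 was called, and 6 were higher and 1 lower at an unadjusted p under 0.05, against 8.61% and 8.06% of all genes. All knockout arrays lay above all wild-type arrays for 4 of the 15, against 5.26% of all genes, and the list median was 0.14. Slc15a4, a histidine and peptide carrier, was at 9.17 ± 0.12 against 8.81 ± 0.15, a difference of 0.37 ± 0.10 (limma adjusted p = 0.0953). Slc32a1, the vesicular carrier of inhibitory neurons, differed by 0.26 ± 0.08, Slc66a1, which exports cationic amino acids from lysosomes, by 0.21 ± 0.07, and Slc38a7, which exports glutamine, by 0.20 ± 0.08. Ctns, the lysosomal cystine exporter, differed by 0.18 ± 0.08, whereas Slc38a9, which senses arginine for mTORC1, differed by -0.26 ± 0.11.

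A list of mitochondrial carriers, mostly of amino acids but with Slc25a39, Slc25a40 and Slc25a48 among them, had mostly negative differences. None of 15 was called, 10 of 15 were negative, where 57.2% of all genes were positive, and the median was -0.06. The glutamate carrier Slc25a22 differed by 0.27 ± 0.09, the glycine carrier Slc25a38 by -0.26 ± 0.09 and the aspartate-glutamate carrier Slc25a13 by -0.19 ± 0.08, the last with every knockout array below every wild-type array. Their adjusted p in limma lay between 0.191 and 0.286.

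**Figure D5:**
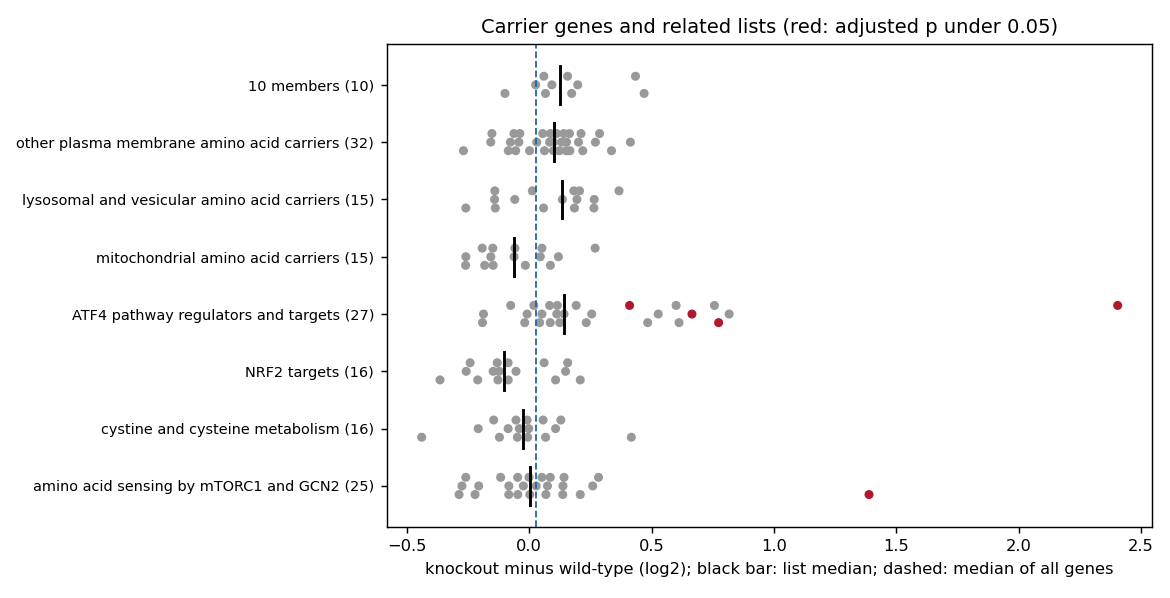
Knockout minus wild-type difference (horizontal axis, log2 units) of each gene of the 10 carriers and of 7 related lists (vertical axis, number of measured genes in brackets), with the list median as a black bar, the median of all genes as a dashed line, and genes with an adjusted p under 0.05 in red. Red points appear in the ATF4 list, 4 of 27, and in the amino acid sensing list, 1 of 25.

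In the same livers 4 of 27 measured genes of the ATF4 pathway rose and none fell, against 0.433% and 0.717% of all genes. This list, like the others, was chosen with earlier results of these data known, so the comparison with all genes is not independent. The list median was 0.14, and 22 of the 27 differences were positive, against 57.2% of all genes. The 4 were the stress protein gene Nupr1, by 2.41 ± 0.24, and 3 genes of amino acid synthesis, Asns by 0.67 ± 0.13, Psat1 by 0.77 ± 0.14 and Phgdh by 0.41 ± 0.09 (limma SE, n = 4 each). Nupr1 was the single call without both mouse 1 arrays, against either class of controls, and without knockout mouse 1 or 3 or wild-type mouse 2, 3 or 4 alone. Nupr1 and Psat1 passed without knockout mouse 2, with arrays centred and with the Y-linked covariate, and Nupr1 and Trib3 without wild-type mouse 1. Atf4 itself differed by 0.08 ± 0.08 and the amino acid sensing kinase gene Eif2ak4 by 0.05 ± 0.08. The ATF4 target Trib3 was at 7.80 ± 0.28 against 7.04 ± 0.39 and differed by 0.76 ± 0.19 (adjusted p = 0.0810), whereas Chac1 differed by -0.0086 ± 0.26.

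NRF2 targets, which share Slc7a11 as a member of their programme, had mostly negative differences. None of 16 measured genes was called, 11 were negative, where 57.2% of all genes were positive, and the median was -0.10. At an unadjusted p under 0.05, 4 were lower and none higher, against 8.06% and 8.61% of all genes. Nqo1 differed by -0.36 ± 0.12, Taldo1 by -0.24 ± 0.09, without overlap, and Gstm1 by -0.26 ± 0.11. Of these NRF2 targets, 1 lay wholly below in the knockout arrays, Taldo1, and 1 wholly above, against 5.49% and 5.26% of all genes. Of 16 genes that make or use cysteine none was called either, with a median of -0.02. Got1, the cytosolic aspartate aminotransferase, differed by 0.42 ± 0.10, the sulfurtransferase Mpst by -0.44 ± 0.14 and Cdo1, which oxidises cysteine, by 0.13 ± 0.07, each without overlap. The knockout arrays lay wholly above the wild-type arrays for 2 of these 16 genes and wholly below for 1, against 5.26% and 5.49% of all genes.

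Of 25 genes by which mTORC1 and GCN2 sense amino acids, 1 rose, the lysosomal GTPase gene Rragd, by 1.39 ± 0.18, and none fell, against 0.433% and 0.717% of all genes. The list median was 0.0024. At an unadjusted p under 0.05, 2 of the 25 were higher and 5 lower, against 8.61% and 8.06% of all genes. The Rragd call was lost without both mouse 1 arrays and against controls with Cre. Here too the list was chosen with earlier results of these data known.

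Several carriers are also expressed outside hepatocytes, Slc7a5 and Slc3a2 in dividing and immune cells and Slc7a11 in macrophages. All 7 measured markers of dividing cells fell, by 0.63 to 0.95, where 0.717% of all genes were called lower. The mean level of that list was 7.62 to 7.98 in knockout and 8.49 to 8.90 in wild-type arrays. Without both mouse 1 arrays 2 of the 7 passed, without wild-type mouse 2 alone 4, and against controls with Cre 1 and without Cre 4. None of 10 macrophage markers was called, 9 of the 10 differences were positive, and their mean level was 9.21 to 9.72 in knockout and 9.11 to 9.63 in wild-type arrays. Among them Cd68 differed by 0.36 ± 0.09, without overlap (limma adjusted p = 0.0921). None of 6 endothelial markers was called, all 6 differences were positive and 2 had an unadjusted p under 0.05, with mean levels of 9.54 to 9.60 and 9.33 to 9.51. None of 9 lymphocyte markers was called, though all 9 differences were positive, where 57.2% of all genes were. Their median was 0.28, with mean levels of 5.97 to 6.27 and 5.76 to 5.93. Cd3e differed by 0.37 ± 0.12, without overlap. At an unadjusted p under 0.05, 3 lymphocyte and 2 endothelial markers were higher and none lower, against 8.61% and 8.06% of all genes. Of 9 hepatocyte markers none was called, at 12.3 to 12.5 in knockout and 12.4 to 12.6 in wild-type arrays. Markers of skeletal muscle, a tissue other than liver, were positive in 4 of 4, with a median of 0.23. Their mean levels were 6.33 to 6.69 in knockout and 6.10 to 6.27 in wild-type arrays. Positive differences numbered 2 of 7 for stellate, 4 of 6 for neutrophil and 3 of 5 for cholangiocyte markers. They numbered 1 of 2 for erythroid and 2 of 2 for pancreas markers, and no marker of these 6 kinds was called. The part of these cell types in the carrier values was not tested.

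Likeness was sought among 10541 genes brighter than the median gene, leaving out predicted, RIKEN and small RNA symbols. The genes whose levels over the 8 arrays were most like Slc3a2 were Ets2 (Pearson r = 0.993), Ghitm (0.987), Washc5 (0.982), Rhoq (0.969) and Cdk6 (0.965). Those most like Slc7a2 were Zfp618 (0.978), Plbd2 (0.977), Ier5l (0.974), Pik3r6 (0.973) and Pla2g12a (0.970). These correlations hold the group difference as well as the mice in common and are descriptions of 8 arrays. Of these 10 genes Zfp618 alone was called, with a rise of 0.64 ± 0.12 (limma adjusted p = 0.0333).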

How the data were processed

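The authors deposited 1 table of log2 expression values for 39137 probe sets on 8 arrays, made by RMA (oligo 1.24, per the submitters' processing notes). The log2 scale was inferred from the method and the range, 1.28 to 13.88. RMA equalises the distribution of the arrays and compresses differences of dim probe sets. The sources used here name neither chip definition nor genome build. Of the deposited rows, probe sets with 1 symbol in the platform annotation (23521) were kept, and the brightest of each gene left 22180 genes, all of which entered one two-sided limma fit (3.58.1, under R 4.3.3; lmFit, eBayes) on group alone, with Benjamini-Hochberg adjustment over all of them. Single carriers also had an exact permutation test over 70 assignments. The limma step was tested on simulated data. Replicates were mice, so p-values measure the spread between mice, whose number limits precision. Same-numbered mice did not deviate together in every case (residual r from -0.10 to 0.27), so the numbers were not taken as pairs. The members and lists were chosen with earlier results of these data known. Named genes are the 10 carriers, called list genes or the 3 of smallest p, and the 5 genes most like each of 2 carriers. Slc7a3, Slc7a6, Slc7a7, Slc7a9, Slc7a10, Slc1a1, Slc1a2, Slc1a5, Slc38a7, Slc38a9, Slc25a39, Slc25a40, Slc25a48, Ctns, Alb, Cps1, Hnf4a, Serpina1a, Ass1, Atf4, Eif2ak4, Trib3 and Chac1 were added after their values were seen, as relatives of the carriers, checks of the tissue or genes of the ATF4 pathway. Plots used Python version 3.11.15, pandas version 2.3.3 and matplotlib version 3.10.9.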

Additional observations from a re-analysis of the deposited data

Results flagged for a closer look

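In 2 of 20 sets of 4 arrays (10 carriers in 2 groups), 1 array lay further from the rest than Dixon's criterion allows, and chance alone flags about 1 set in 20. Both were wild-type mouse 1, whose Slc1a4 level of 7.88 lay below a nearest value of 8.33, and whose Slc38a3 level of 13.30 lay above a nearest value of 13.18. The same array had the high Dbp level given above, and its part in these values was not tested.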

How the results depend on the processing

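No carrier was called lower under any of 20 alternative settings, and Slc3a2 and Slc7a2 kept a positive difference in all 20. Carriers called higher numbered 2 with a trended and robust variance and 2 with brighter genes only, in both cases Slc3a2 and Slc7a2, and 0 to 1 with 1 array left out. Genes called higher and lower over all genes were 159 and 300 with the trended and robust variance, 28 and 37 without both mouse 1 arrays, 15 and 32 against controls without Cre, and 13 and 16 against controls with Cre. They ranged from 29 to 65 and from 60 to 119 with 1 array left out. Centring gave 60 higher, the Y-linked covariate 45 higher, brighter genes only 319 lower, and array weights 245 lower. With mouse number as a replicate block no carrier was called (0 higher, with 68 genes higher and 142 lower), Slc3a2 standing at 0.43 with adjusted p = 0.104 and Slc7a2 at 0.47 with adjusted p = 0.0634. Signs turned for Slc38a4 with centred arrays (-0.0059), Slc7a5 against controls without Cre (-0.012) and Slc43a1 with the Y-linked covariate (0.0485). With 1 array left out the differences ran from -0.0291 to 0.19 for Slc38a2, -0.0059 to 0.0601 for Slc38a4, -0.0332 to 0.12 for Slc7a5, 0.08 to 0.35 for Slc1a4 and -0.18 to 0.0331 for Slc43a1. The cause of these changes was not tested. Counts for the ATF4, amino acid sensing and dividing cell lists under these settings were added after seeing the data. Slc7a11 had no value among brighter genes.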
